A study of Homo sapiens with 4 samples.

Results

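The MAX network is a family of basic helix-loop-helix leucine zipper transcription factors, and its transcripts were followed here through 4 arrays of cells given a plant extract or its vehicle. The members are the 10 genes MYC, MAX, MXD1, MXD3, MXD4, MXI1, MNT, MLX, MLXIP and MLXIPL, chosen by symbol from the 14884 genes that the array's probe table names. All 10 had a transcript cluster, which is the array's probe set for a gene. They account for 12 of 16098 named clusters and of 48226 clusters in all, because MXD3 and MXI1 have 2 clusters each.

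MYC binds DNA as a dimer with MAX and activates genes of growth and metabolism. MXD1, MXD3, MXD4, MXI1 and MNT compete for MAX and for the same DNA element, the E-box, and repress through SIN3 and histone deacetylases, with MXD1 known as a factor of cells that leave the cycle and differentiate. MLX pairs with MLXIP (MondoA) and MLXIPL (ChREBP), which respond to glucose metabolites, ChREBP being prominent in liver.

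HCT116, a colorectal carcinoma line, received MP-HX, the hexane leaf extract of Melicope ptelefolia, at 60 µg/mL for 24 h. HepG2, a hepatocellular carcinoma line, received it at 78 µg/mL for 24 h. The HCT116 vehicle is labelled 0.3% DMSO and the HepG2 vehicle 0.39%, while the methods describe a single vehicle for both lines, so whether the vehicles differed is not settled. Cell line and dose differ together. RNA of 3 cultures was pooled for each of the 4 groups and hybridised to 1 array per group. A difference within a line therefore has no replicate arrays, and precision is limited by there being 4 arrays. The paper also ran RT-qPCR on the separate cultures for a set of genes, none of them in the MAX network. DDIT3, NDRG1 and PLK1, named below, were in that set and changed in the array's direction in both lines.

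The median log2 signal over all clusters lay between 3.97 and 4.33 on the 4 arrays, and the arrays of 1 line correlated at r = 0.978 or 0.979 across clusters. All 16 measured hepatocyte marker genes were at least 2-fold higher in the HepG2 vehicle than in the HCT116 vehicle. Colon epithelium markers did not separate the lines. In HepG2, 3 of 11 were at least 2-fold lower and 2 at least 2-fold higher (VIL1 and LGR5, named with their values in view). Over all genes, 19.3% were at least 2-fold lower and 5.76% at least 2-fold higher in the HepG2 vehicle. Of 5 measured fibroblast, endothelial and blood markers, 1 (CD68) was above the array median, on all 4 arrays, and it was higher with MP-HX by 2.61 in HCT116 and by 1.06 in HepG2 on the log2 scale.

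MXD1 gave the largest difference of the 10 genes in both lines, and its promoter and that of MXD4, the other repressor that passed 2-fold in HCT116, are shown for that reason. Each run is the 250 bases before the RefSeq transcription start, printed 5′ to 3′ along the gene's strand, from GRCh38.p14 at chr2:69914859-69915108 on the plus strand for MXD1 and at chr4:2262110-2262359 on the minus strand for MXD4. Capitals mark the E-box (CACGTG), the CCAAT box (CCAAT, or ATTGG on the other strand) and the GC box (GGGCGG, or CCGCCC on the other strand), none of which overlap here.
MXD1: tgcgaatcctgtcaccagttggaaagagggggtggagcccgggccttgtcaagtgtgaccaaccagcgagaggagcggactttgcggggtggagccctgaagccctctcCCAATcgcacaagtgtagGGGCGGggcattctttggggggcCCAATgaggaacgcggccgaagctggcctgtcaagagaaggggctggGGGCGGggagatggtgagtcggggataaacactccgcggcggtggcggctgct
MXD4: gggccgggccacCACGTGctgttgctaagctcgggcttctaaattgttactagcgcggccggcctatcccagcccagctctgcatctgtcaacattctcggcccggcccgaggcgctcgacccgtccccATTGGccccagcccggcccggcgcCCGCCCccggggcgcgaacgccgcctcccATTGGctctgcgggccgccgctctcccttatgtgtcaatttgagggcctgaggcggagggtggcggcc
The MXD1 run holds CCAAT boxes that begin 141 and 100 bases before the start and GC boxes at 123 and 53 bases, and no CACGTG. The MXD4 run holds an E-box at 238 bases, CCAAT boxes at 121 and 68 bases and a GC box at 97 bases. Neither run holds the AP-1 element (TGANTCA) or the cyclic AMP response element (TGACGTCA). On either strand, CACGTG was in 6.34% of 35116 windows of this length over the genome's genes, CCAAT in 32.0%, GGGCGG in 42.6%, TGANTCA in 6.57% and TGACGTCA in 1.65%. Windows were at hand for 9 of the 10 members (all but MYC), 12 windows in all, since a gene can have several starts. Of these, 3 held CACGTG (those of MXD4, MNT and MLX), 5 CCAAT, 11 GGGCGG, 1 TGANTCA (MXD3) and 1 TGACGTCA (MLXIP). A match describes letters in a window and no binding was measured.

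In HCT116, 2 of the 10 members exceeded vehicle by 2-fold or more on the MP-HX array (MXD1 and MXD4) and 0 were at least 2-fold lower. Over all genes, 2.43% were at least 2-fold higher and 2.99% at least 2-fold lower. In HepG2, 2 of 10 were at least 2-fold higher (MXD1 and MYC) and 0 lower, against 3.18% and 2.26% of all genes. The median log2 difference of the members was 0.285 in HCT116 and 0.41 in HepG2, where all genes had a median of 0 with a robust SD of 0.37 across genes in each line.

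**Figure D1:**
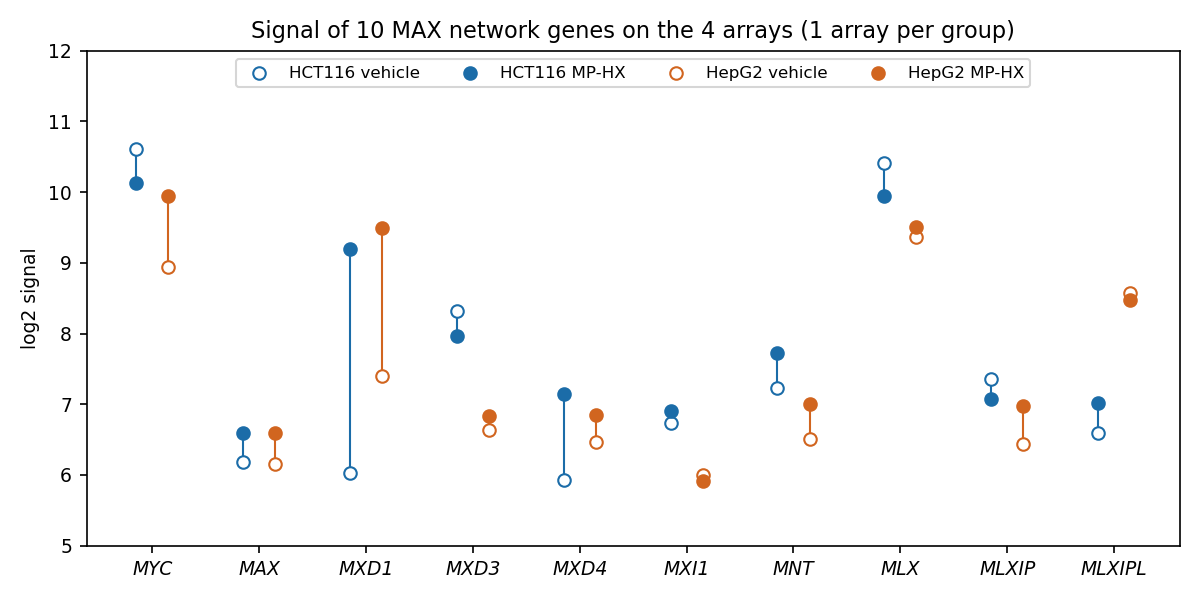
Log2 signal (vertical axis) of the 10 MAX network genes on the 4 arrays, 1 point per array, with HCT116 in blue, HepG2 in orange, open circles for vehicle and filled circles for MP-HX; levels are comparable within a gene, not between genes. MXD1 climbs from 6.03 to 9.19 in HCT116 and from 7.40 to 9.50 in HepG2, while the MYC points of HepG2 and HCT116 move toward each other.

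MYC, the activator of the network, had a log2 signal of 10.61 with vehicle and 10.13 with MP-HX in HCT116, and of 8.94 with vehicle and 9.94 with MP-HX in HepG2. The HCT116 vehicle array was the highest of the 4 and the HepG2 vehicle array the lowest, with both MP-HX arrays between them. MP-HX minus vehicle was -0.48 in HCT116, a level 1.39-fold lower, and 24.4% of genes were at least as far from their vehicle in that line. In HepG2 it was 1.00, exactly at the 2-fold threshold, and 5.44% of genes were at least as far from vehicle. That value fell short of 2-fold after quantile normalization (0.96) or with 64 added to the linear signal (0.91). The difference between the lines' changes, 1.48 in favour of HepG2, has no test, because each line has 1 pair of arrays. Of the 14884 genes, 27 (MYC among them) were at least as far below vehicle as MYC in HCT116 and at least as far above it in HepG2. In bulk RNA, a change in the share of cells that express a gene and a change in the amount per cell cannot be told apart.

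MAX, the shared partner, had a log2 signal of 6.19 with vehicle and 6.59 with MP-HX in HCT116, and of 6.16 and 6.60 in HepG2. The lines were nearly level, and MP-HX was higher in both, by 0.40 and 0.44. In HCT116, 31.5% of genes were at least as far from vehicle as MAX, and in HepG2 27.9%.

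MXD1, the MAX partner first described as MAD1, had a log2 signal of 6.03 with vehicle and 9.19 with MP-HX in HCT116, and of 7.40 with vehicle and 9.50 with MP-HX in HepG2. Both MP-HX arrays lay above both vehicle arrays. The level was 8.94-fold higher with MP-HX in HCT116 (log2 difference 3.16), the 4th highest value of 14884 genes. It was 4.29-fold higher in HepG2 (2.10), the 64th highest. With 64 added to the linear signal the HCT116 difference was 2.32. Only CXCL8, a neutrophil chemokine (6.20 and 2.65), and LURAP1L (3.92 and 2.93) were also at least as far above vehicle as MXD1 in both lines, and HMOX1, the haem-degrading oxygenase, exceeded it in HCT116 alone (3.51, against 1.97 in HepG2). The vehicle signals of CXCL8 (3.08 in HCT116 and 3.46 in HepG2) lay below the array medians, so its differences rest on dim probes. These 3 genes were picked with their values in view.

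The change of MXD1 relative to that of MYC was 3.64 on the log2 scale in HCT116, a 12.47-fold shift of their ratio, and 1.10 in HepG2, a 2.14-fold shift. In HCT116 MXD1 was higher and MYC lower than with vehicle, and in HepG2 both were higher. With 64 added to the linear signal the shift was 2.78 and 0.84.

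MXD4, a repressor of the same family, had a log2 signal of 5.93 with vehicle and 7.14 with MP-HX in HCT116, and of 6.47 and 6.85 in HepG2. The difference was 1.21 in HCT116 (2.31-fold higher, the 211th highest value) and 0.38 in HepG2. The HCT116 value dropped to 0.71, below 2-fold, with 64 added to the linear signal. MNT, a broadly expressed repressor, went from 7.23 to 7.73 in HCT116 and from 6.51 to 7.01 in HepG2, 0.50 in each line.

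MXD3, a repressor known from cycling cells, had a log2 signal of 8.32 with vehicle and 7.96 with MP-HX in HCT116, and of 6.63 and 6.84 in HepG2. The differences, -0.36 and 0.21, had opposite signs and were both inside the array-wide SD. Its dimmer cluster had 5.81 and 5.57 in HCT116 and 4.66 and 4.74 in HepG2, differences of -0.24 and 0.08 with the same signs. MXI1, also called MXD2, had a log2 signal of 6.73 with vehicle and 6.90 with MP-HX in HCT116, and of 6.00 and 5.92 in HepG2, which makes differences of 0.17 and -0.08. Its dimmer cluster had 5.22 and 5.14 in HCT116 and 4.91 and 4.47 in HepG2, differences of -0.08 and -0.44, so the clusters disagreed in sign in HCT116.

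MLX, the partner of the glucose-responsive factors, had a log2 signal of 10.41 with vehicle and 9.94 with MP-HX in HCT116, and of 9.36 and 9.51 in HepG2. MLXIP had 7.36 and 7.08 in HCT116, and 6.44 and 6.97 in HepG2. Both genes were lower in HCT116 (-0.47 and -0.28) and higher in HepG2 (0.15 and 0.53), all under 2-fold. MLXIPL had 6.60 with vehicle and 7.02 with MP-HX in HCT116, and 8.57 and 8.48 in HepG2, differences of 0.42 and -0.09.

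**Figure D2:**
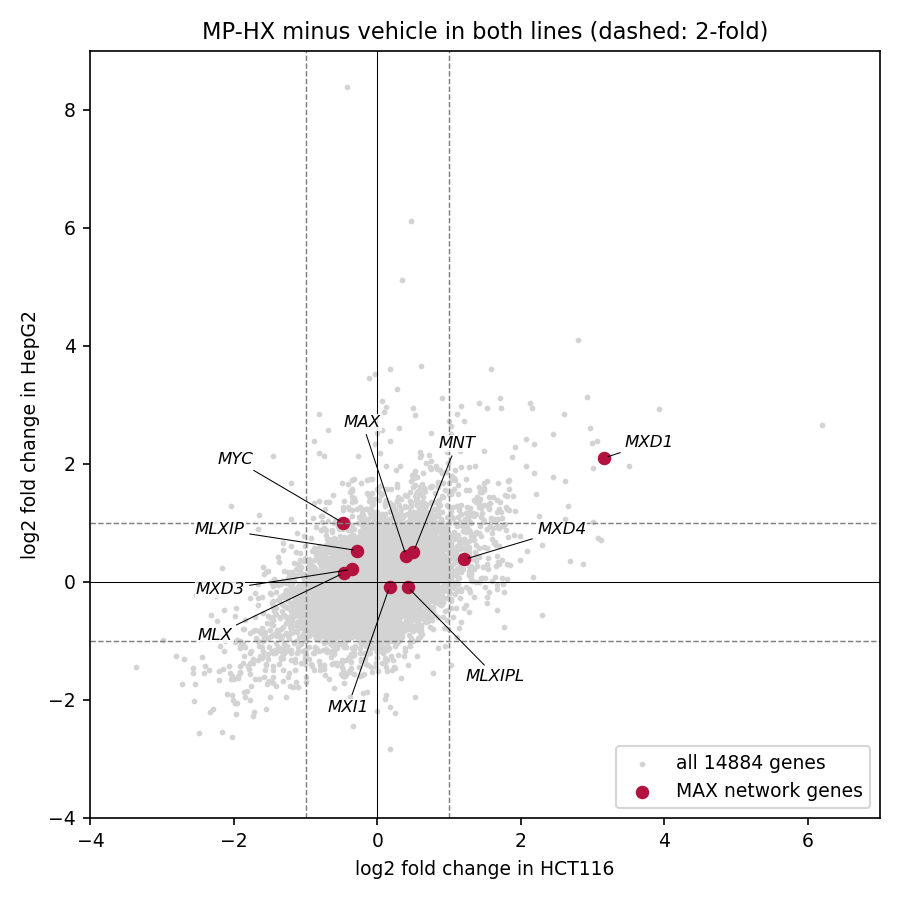
Log2 MP-HX minus vehicle in HCT116 (horizontal axis) against HepG2 (vertical axis), 1 grey point per gene for 14884 genes and a red point for each MAX network gene, with dashed lines at 2-fold. MXD1 is the member at the upper right (3.16 and 2.10), and MYC sits at the upper left (-0.48 and 1.00) with MXD3, MLX and MLXIP.

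Across the lines, 4 members were higher with MP-HX in both (MAX, MXD1, MXD4 and MNT), 0 were lower in both, and 6 had opposite signs. Of all genes, 37.7% had opposite signs. The shared effect was fitted with limma over all 4 arrays with the cell line as a block, which pairs the arrays of a line. Each cluster then has 1 residual degree of freedom, from the difference between the lines' responses. The fit shrank this error toward a value common to all clusters, giving 4 degrees of freedom. Its SEs and p-values therefore rest mostly on the spread of other clusters. At an adjusted p under 0.05 the fit called 0% of 16098 clusters, and 2040 clusters (12.7%) had an unadjusted p under 0.05. Among the members' 12 clusters, 3 had an unadjusted p under 0.05, those of MXD1, MXD4 and MNT.

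For MXD1 the mean log2 difference of the lines was 2.63 ± 0.312 (shrunken SE, 2 pairs of arrays) with a limma adjusted p of 0.192, higher with MP-HX in 2 of 2 lines. Its limma adjusted p ranged from 0.0249 after quantile normalization, where 233 clusters were called, to 1 without the block, where 0 were called. MXD4 had a mean of 0.795 ± 0.265 (SE) and a limma adjusted p of 0.371. MNT had 0.50 ± 0.165 (SE) and a limma adjusted p of 0.368, and MYC 0.26 ± 0.405 (SE) and a limma adjusted p of 0.845. None of the members met the threshold in the fit as described.

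Without the extract, the lines themselves differed in the network. In the HepG2 vehicle, 2 members were at least 2-fold higher than in the HCT116 vehicle (MXD1 and MLXIPL) and 3 at least 2-fold lower (MYC, MXD3 and MLX), against 5.76% and 19.3% of all genes. The median gene was lower in HepG2 by 0.42 on the log2 scale, a shift that shrank to -0.14 after each array was centred on its median, so differences are also given relative to it. MLXIPL was 3.92-fold higher in HepG2 (log2 difference 1.97, or 2.39 relative to the median gene). MXD1 was 2.58-fold higher (1.37, or 1.79), but under 2-fold with 64 added (0.85). MYC was 3.18-fold lower (-1.67, or -1.25), and MXD3 was 3.23-fold lower (-1.69). MLX was at -1.05, but under 2-fold relative to the median gene (-0.63), after quantile normalization (-0.72), after centring (-0.77) and with 64 added (-0.98). MAX was -0.03, a sign that turned after quantile normalization (0.37) and after centring (0.25).

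With MP-HX, 1 member stayed at least 2-fold higher in HepG2 (MLXIPL, 1.46) and 1 at least 2-fold lower (MXD3, -1.12), against 5.52% and 17.2% of all genes. MXD3 was under 2-fold relative to the median gene (-0.71), after quantile normalization or centring (-0.76 in each) and with 64 added (-0.81). The MYC difference between the lines was -0.19, and 0.22 relative to the median gene, where the sign was the opposite. For MXD1 it was 0.31, and 0.72 relative to the median gene. The lines thus lay closer together for both genes on the MP-HX arrays than on the vehicle arrays, by either measure. MXD4 was 0.54 higher in HepG2 with vehicle and at -0.29 with MP-HX, though relative to the median gene it was above 0 in both (0.96 and 0.12). MLXIP was at -0.92 with vehicle and -0.11 with MP-HX, and the latter turned to 0.30 relative to the median gene or after quantile normalization and to 0.25 after centring. MNT was at -0.72 in both, and MXI1 at -0.73 and -0.98.

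**Figure D3:**
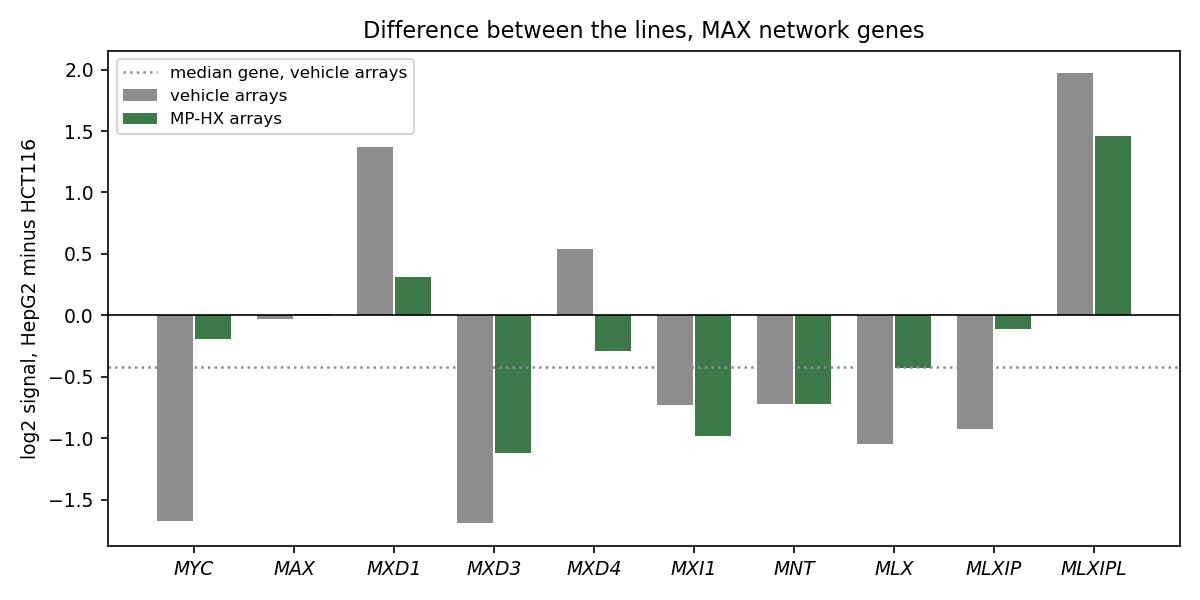
HepG2 minus HCT116 log2 signal for the 10 members, a grey bar for the vehicle arrays and a green bar for the MP-HX arrays of each gene, with a dotted line at the median gene of the vehicle arrays (-0.42). MYC moves from -1.67 to -0.19 and MXD1 from 1.37 to 0.31, while MNT is at -0.72 in both.

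The genes whose 4 log2 values, each centred on its own mean, lay nearest to those of MXD1 were IRAK2, a kinase of interleukin-1 receptor signalling (distance 0.66), TUSC3, a subunit of the oligosaccharyltransferase (0.76), CLGN, an endoplasmic reticulum chaperone (0.78), TCP11L2 (0.80) and ABHD4 (0.97). IRAK2 had a log2 signal of 6.42 with vehicle and 9.03 with MP-HX in HCT116, and of 7.26 and 8.97 in HepG2. All 5 exceeded vehicle by 2-fold or more in both lines, the smallest difference being that of CLGN in HepG2 (1.01). This largely follows from picking them by likeness to MXD1, and 138 of 14884 genes did so. The HCT116 vehicle signal of TUSC3, 3.97, lay below the array median of 4.31, so its HCT116 difference rests on dim probes. The nearest to MYC were KRTAP10-10 (0.18), PGS1 (0.19), ANKRD27 (0.19), SNU13 (0.20) and the long noncoding RNA PPP3CA-DT (0.21). The distance is Euclidean over 4 arrays among 11614 genes, so it describes these arrays and carries no test.

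Among the other relatives of the family, 6 of 15 listed genes had a named cluster. TFE3, a regulator of lysosomal genes, had a log2 signal of 6.88 with vehicle and 8.60 with MP-HX in HCT116, and of 7.15 and 8.33 in HepG2. It was at least 2-fold higher in both lines (1.72 and 1.18), the 1 of 6 in each, where 2.43% and 3.18% of all genes were. TFAP4, an E-box binding factor known as a MYC target, went from 8.07 to 6.94 in HCT116 and from 6.57 to 6.69 in HepG2, and its difference of -1.13 in HCT116 was the only one of the 6 at least 2-fold lower. With 64 added, TFAP4 in HCT116 (-0.83) and TFE3 in HepG2 (0.91) were under 2-fold. TFEB was at 0.71 in HCT116, and USF1 at 0.42 and MGA at -0.43 in HepG2.

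MYC cofactors, the proteins that MYC recruits to chromatin, were mostly under 2-fold, with 0 of 13 higher and 1 lower in HCT116 and 0 of 13 in either direction in HepG2 (all genes 2.43% and 2.99% in HCT116, 3.18% and 2.26% in HepG2). The 1 was RUVBL1, an ATPase of chromatin remodelling complexes, which went from 9.08 to 8.06 in HCT116 (-0.87 with 64 added) and from 7.40 to 6.98 in HepG2. WDR5, which anchors MYC to chromatin, was at -0.89 in HCT116. KAT5, a histone acetyltransferase, was at 0.87 in HepG2, and CCNT1, the cyclin of the elongation kinase, at 0.59. ZBTB17 (MIZ1), through which MYC represses, was at 0.40 in HCT116, CDK9 at 0.47 there, and BPTF at -0.50 in HepG2.

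The SIN3 and HDAC corepressors, which the MXD proteins recruit, had 0 of 9 measured members at least 2-fold apart in either line. Below vehicle were 6 of 9 in HCT116 and 7 of 9 in HepG2, where 47.4% and 49.7% of all genes were below. RBBP7, a histone chaperone of these complexes, was at -0.81 in HCT116 and -0.90 in HepG2, and HDAC1 at -0.64 and -0.58. SIN3B, a scaffold of the complex, was at 0.40 and 0.73. ARID4B was at 0.11 in HCT116 and BRMS1 at 0.53 in HepG2.

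Of 14 measured genes that act on MYC protein stability, 1 was at least 2-fold higher and 4 at least 2-fold lower in HCT116 (all genes 2.43% and 2.99%), and 1 and 2 in HepG2 (3.18% and 2.26%). PLK1, a mitotic kinase, had a log2 signal of 11.24 with vehicle and 9.04 with MP-HX in HCT116, and of 11.18 and 10.28 in HepG2. AURKA, a mitotic kinase that shields MYC proteins from degradation, was at -1.51 in HCT116 and -1.10 in HepG2, and CIP2A, an inhibitor of the phosphatase PP2A, at -1.35 and -1.14. PIM1, a kinase that phosphorylates MYC, went from 7.56 to 9.94 in HepG2 (2.38) and from 7.57 to 7.75 in HCT116 (0.18). FBXO32, a ubiquitin ligase subunit, was at 1.66 in HCT116 and 0.96 in HepG2, and with 64 added at 0.92 and 0.24. Its HepG2 vehicle signal of 3.94 was below the array median of 4.03. AURKA and CIP2A were both at -0.87 in HepG2 with 64 added. GSK3B, the kinase that marks MYC for degradation, was at 0.50 in HCT116.

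Genes that MYC is known to induce in growth, such as those of ribosome and nucleotide synthesis, lay below vehicle in HCT116 for 38 of 41 measured genes (of 70 listed), with a median of -0.55, 0 at least 2-fold higher and 7 at least 2-fold lower. Over all genes there, 47.4% were below vehicle, 2.43% at least 2-fold higher and 2.99% at least 2-fold lower. In HepG2, 24 of 41 were below vehicle (all genes 49.7%), the median was -0.03, and 3 were at least 2-fold higher and 1 lower (all genes 3.18% and 2.26%). With 64 added, HCT116 had 3 at least 2-fold lower and HepG2 0 in either direction, and after centring the HepG2 median was 0.03. PRPS2, an enzyme of nucleotide synthesis, went from 10.29 to 8.94 in HCT116 and from 8.63 to 7.46 in HepG2. TMEM97, a sterol-regulated membrane protein, was at -1.48 in HCT116, and CTPS1, the cytidine triphosphate synthase, at -0.76 in HepG2. Among genes above vehicle, EIF4EBP1, an inhibitor of translation initiation, was at 0.84 in HCT116. RRP12, a ribosome assembly factor, was at 0.51 in HCT116 and 1.07 in HepG2. WDR74, another ribosome assembly factor, was at 1.14 in HepG2. BOP1, level with RRP12 in HepG2 at 1.07, was at -1.2 in HCT116.

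Of 9 measured genes that MYC is known to repress (of 20 listed), 2 were at least 2-fold higher and 1 lower in each line (all genes 2.43% and 2.99% in HCT116, 3.18% and 2.26% in HepG2). DDIT3, the stress factor CHOP, had a log2 signal of 4.12 with vehicle and 7.18 with MP-HX in HCT116, and of 3.91 and 6.29 in HepG2, both vehicle values being below the array medians of 4.31 and 4.03. NDRG1, a stress-responsive gene, was at 1.66 and 1.19. With 64 added, DDIT3 was at 1.36 in HCT116 and 0.85 in HepG2, and NDRG1 at 1.09 and 0.68, so neither reached 2-fold in HepG2. THBS1, the matrix protein thrombospondin, was at -1.45 in HCT116 (-0.97 with 64 added, under 2-fold) and -0.05 in HepG2. TXNIP, by its brighter cluster, was the gene at least 2-fold lower in HepG2 (-1.51). GAS2 was at -0.98 there.

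Of 17 measured MondoA and ChREBP targets, 2 were at least 2-fold higher and 0 lower in HCT116 (all genes 2.43% and 2.99%), and 3 were higher and 2 lower in HepG2 (3.18% and 2.26%). By sign alone, 14 lay below vehicle in HCT116 (median -0.06) and 10 in HepG2 (median -0.22), where 47.4% and 49.7% of all genes did. TXNIP, an inhibitor of glucose uptake that both this list and the preceding one hold, had a log2 signal of 7.11 with vehicle and 5.60 with MP-HX in HepG2, and of 2.54 and 2.68 in HCT116, below the lower quartile of those arrays. A dimmer TXNIP cluster went from 1.82 to 2.15 in HepG2 (0.33) and was at 0.00 in HCT116, below the lower quartile of each array. The arrestin relative of TXNIP, ARRDC3, went from 8.39 to 9.75 in HCT116 and from 7.72 to 9.68 in HepG2, and ARRDC4 was at 1.41 in HCT116 and 0.00 in HepG2. KLF11, a zinc finger repressor, went from 5.67 to 8.01 in HepG2 (2.34) and was at -0.03 in HCT116. PNPLA3, a lipid droplet protein, was at -1.08 in HepG2, KHK, the fructokinase, at -0.84 in HCT116, and ACLY, the ATP citrate lyase, at -0.76 there. With 64 added, HCT116 had 1 at least 2-fold higher (ARRDC3, 1.21), KLF11 in HepG2 was at 1.49, and TXNIP (-0.85) and PNPLA3 (-0.55) were under 2-fold in HepG2. The 3 of 16 hepatocyte markers at least 2-fold lower with MP-HX in HepG2 moved beside these HepG2 values, and their part in the result was not tested. That count was 2 after quantile normalization or with 64 added, and 1 after centring.

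**Figure D4:**
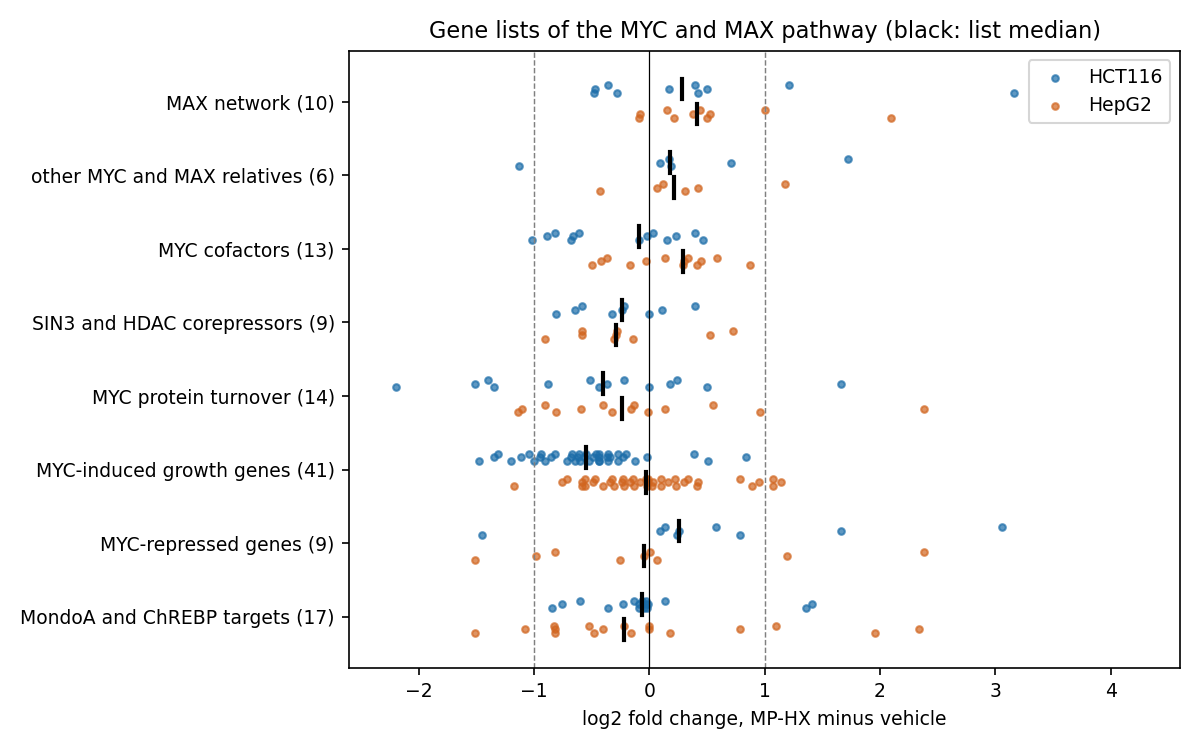
Log2 MP-HX minus vehicle (horizontal axis) of each measured gene in the MAX network and 7 pathway lists, 1 point per gene and line, a black bar at the list's median and the number of genes in brackets, with dashed lines at 2-fold. The MYC-induced growth genes have their median at -0.55 in HCT116 and at -0.03 in HepG2.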

How the data were processed

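The authors pooled RNA of 3 cultures per group and hybridised each pool to 1 Affymetrix Human Gene array. The deposited table gives log2 signal for each cluster, to 2 decimals, and all 4 value columns were used. Transcriptome Analysis Console, GCOS and Affymetrix Expression Console are named in the submitters' processing notes. The normalization and the genome build are not given in the sources used here.

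Of 48226 clusters, a probe table gave 16098 exactly 1 gene symbol, 0 several symbols and 32128 none. These named 14884 genes, each given by its cluster with the highest mean signal. The log2 fold change is MP-HX minus vehicle within a line, counted at the 2-fold threshold of the methods. Fold changes were computed from values as deposited, with no pseudocount and no filter. The shared effect was fitted with limma 3.58.1 in R 4.3.3 with the line as block and Benjamini-Hochberg adjustment. Other values came from pandas 2.3.3 and numpy 2.4.6. Counts and fit were run on simulated data to check the code. For the fit, simulated effects were equal in both lines and 1 noise level held for all clusters. That simulation does not show how well the fit suits these data.

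The members and gene lists were chosen with earlier results of these data known. Named were all members, the 2 genes furthest above and below vehicle per list and line, and the 5 nearest in pattern to MXD1 and MYC, these among genes above the median of at least 1 array. Others were named after their values were seen. Promoters are RefSeq windows on GRCh38.p14, matched by symbol. Alternatives were quantile normalization, median centring, 64 added to the linear signal, a floor at the array median, the mean of a gene's clusters, thresholds of 1.5-fold and 3-fold, the fit without block, with an intensity trend, over all clusters, and over clusters above the array median.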

Additional observations from a re-analysis of the deposited data

Results flagged for a closer look

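For 6 of the 10 members the 2 lines lay on opposite sides of their vehicle, beside 37.7% of all genes. The difference between the lines was not tested, since each line has 1 pair of arrays. The log2 difference of MYC was -0.48 in HCT116 and 1.00 in HepG2. That of MLXIP was -0.28 and 0.53, that of MLX -0.47 and 0.15, and that of MXD3 -0.36 and 0.21, with HCT116 the lower line in each. The reverse order held for MLXIPL, at 0.42 in HCT116 and -0.09 in HepG2, and for MXI1, at 0.17 and -0.08. Apart from MYC in HepG2, each of these 12 values was under 2-fold. The opposite signs of MXI1 rest on its brighter cluster, since its dimmer cluster was below vehicle in both lines (-0.08 and -0.44). After centring, MLXIPL in HepG2 was at -0.03 and the brighter cluster of MXI1 there at -0.02.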

How the results depend on the processing

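Of 100 member values of MP-HX minus vehicle recomputed under the alternatives, 0 changed direction and 3 crossed 2-fold. For 98, the shift from the reported value was smaller than the robust SD over all genes in that line. These counts include values that could not move. The floor could change none, since all 10 members lay above the array median. The mean of clusters could change only MXD3 and MXI1, the members with 2 clusters. Centring shifted every value of a line alike. With 64 added to the linear signal, the MXD1 difference in HCT116 was 2.32, that of MXD4 there 0.71, and 1 member was at least 2-fold apart in HCT116, 1 in HepG2 and 3 between the vehicle arrays of the lines (2, 2 and 5 as reported). At 3-fold these counts were 1, 1 and 3, and at 1.5-fold 8 members differed between the vehicle arrays. Between the vehicle arrays, quantile normalization and centring each left 4, without MLX. Quantile normalization left 1 in HepG2, since MYC was at 0.96. It also gave 233 clusters at an adjusted p under 0.05 in limma (0 as reported), and the cause was not tested. The other fits called 0, with 284 unadjusted p-values under 0.05 without the block, 2144 with 64 added, 1936 with an intensity trend, 4499 over all clusters and 1866 over clusters above the array median. No array could be left out, because each group has 1. The labels give no replicate numbers, and the pairing used was that of the arrays of a line. All 10 members lay above the array median on all 4 arrays.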
